A study of Homo sapiens with 12 samples.

Results

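The transcript levels of 10 amino acid transporter genes were examined in 201B7, an established human iPSC line, under 4 culture conditions. The genes were SLC7A11, SLC7A5, SLC3A2, SLC7A1, SLC7A3, SLC1A4, SLC1A5, SLC38A1, SLC38A2 and SLC6A9. They were taken by gene name from tables of 60617 genes (TPM, the count per gene length scaled to one total) and 58575 genes (read counts), and each of the 10 was found once in both. Cond 1 was the control, cultured by the usual maintenance method. In Cond 2, labelled Low nutrient, the StemFit medium was heated at 56 °C for 30 min. In Cond 3, labelled Differentiation, the cells received DMEM with 10% FBS, 1% MEM NEAA (non-essential amino acids) and 1% GlutaMax (a stable source of glutamine). In Cond 4, labelled Physical stimulas, the cells were pipetted 20 times at passaging and then cultured as usual. Each condition gave 3 libraries at Day 5, 12 in all, from this 1 line. One well per condition stood in each plate. The study calls the replicates technical in its Results, while its Methods describe repeated runs of the experiment. Whether the 3 libraries are independent experiments cannot be told, so p-values measure only the spread between these wells.

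Amino acids are polar and enter cells through transporters of several families. SLC3A2, the heavy chain known as CD98, carries no amino acid itself and brings light chains such as SLC7A5 (LAT1) and SLC7A11 (xCT) to the plasma membrane. SLC7A5 exchanges large neutral amino acids such as leucine, and SLC7A11 takes up cystine, the precursor of cysteine for glutathione, in exchange for glutamate. SLC7A1 and SLC7A3 carry arginine and lysine, SLC1A4 and SLC1A5 carry small neutral amino acids and glutamine, SLC38A1 and SLC38A2 carry glutamine and alanine with sodium, and SLC6A9 carries glycine. Several of these genes are known targets of ATF4, the transcription factor of the amino acid response, which is translated when amino acids run short.

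After several of the genes were seen to move together in Cond 3, the sequences around their transcription starts were searched for the ATF4 response motif. RefSeq windows (GRCh38.p14) of 250 bases before to 50 bases after a start were given for 8 of the 10 genes, with 14 windows in all. SLC7A11 and SLC7A3 had no entry. Some genes, such as SLC3A2 and SLC1A5, gave several windows, so the windows are not independent. The motif TGATGNAA, searched on both strands, occurred in 5 of the 14 windows, in 5 genes, and in 3.62% of the 35116 windows of all genes. The matches are shown 5′ to 3′ on the gene's strand with the motif in capitals. The SLC3A2 motif is whole, but the letters after it are cut by the end of its window. Only the SLC7A1 window lies at the outermost start of its gene in GENCODE, the other 4 belonging to starts inside the gene.
SLC3A2, chr11:62881725-62881748, plus strand: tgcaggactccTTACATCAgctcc
SLC7A1, chr13:29595663-29595692, minus strand: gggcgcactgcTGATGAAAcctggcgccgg
SLC1A4, chr2:64989381-64989410, plus strand: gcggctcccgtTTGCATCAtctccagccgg
SLC1A5, chr19:46784893-46784922, minus strand: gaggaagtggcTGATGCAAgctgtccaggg
SLC38A1, chr12:46266502-46266531, minus strand: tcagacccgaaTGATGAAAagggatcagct
In SLC3A2 and SLC1A4 the motif lay on the opposite strand. A match describes letters only and not a bound site, and the part of the motif in the changes was not tested. SLC7A5 had no ATF4 response motif in its window but held an E-box (CACGTG, 7.26% of windows) and an antioxidant response motif (TGACNNNGC, 13.3% of windows), both searched on both strands.
SLC7A5 E-box, chr16:87869621-87869648, minus strand: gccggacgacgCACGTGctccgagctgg
SLC7A5 antioxidant response motif, chr16:87869491-87869520, minus strand: ggcggggttccTGACGCAGCtgcgggcggc
The antioxidant response motif was present in 4 of the 14 windows and the E-box in 2 of them. The ATF4 response motif was present in genes that were lower in Cond 3 and also in SLC38A1, which was not. It was absent from the windows of SLC7A5 and SLC6A9, which were lower in Cond 3, and of SLC38A2, which was higher.

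The total count was between 16441148 and 21871503 per library, and replicates differed by more than sampling noise (chi-square per gene between 4.18 and 10.2 over 12 pairs), so each library was kept. All 10 fixed pluripotent stem cell markers were at a mean of at least 1 TPM in every condition, with sums between 7392 and 9502 TPM. Such a floor and a sum do not show whether single markers kept their level. The paper reports lower NANOG transcript levels than in the control in the Low nutrient and Differentiation conditions. It also reports lower POU5F1 transcript levels in the Low nutrient condition. A change was called at an adjusted p-value under 0.05 in edgeR's quasi-likelihood test of the counts, fitted over 17747 genes that passed its filter on low counts. All 10 transporters passed that filter. Fold changes below are on the log2 scale with their standard error (SE) from that fit, and adjusted p-values are from edgeR with Benjamini-Hochberg adjustment unless another tool is named. The 3 comparisons with Cond 1 share its libraries. In these bulk samples, fewer cells of a type and less RNA per cell cannot be told apart.

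In the control, SLC7A3 stood highest at 739 ± 52.8 TPM (mean ± SD, n = 3 here and below), followed by SLC7A5 (563 ± 54.9 TPM), SLC1A5 (470 ± 14.7 TPM) and SLC3A2 (452 ± 39.7 TPM). SLC38A2 was at 273 ± 7.80 TPM, SLC38A1 at 133 ± 2.42 TPM and SLC7A1 at 125 ± 6.70 TPM. SLC7A11 (55.7 ± 5.40 TPM), SLC6A9 (35.8 ± 2.96 TPM) and SLC1A4 (6.86 ± 0.861 TPM) were lowest. Of the neighbours in this order, the libraries of SLC1A5 and SLC3A2 overlapped and those of the others did not. In Cond 2 SLC7A5 came before SLC7A3, with overlapping libraries, and in Cond 2 and Cond 4 SLC3A2 came before SLC1A5, also overlapping. In Cond 3 SLC38A2 came second after SLC7A3, SLC7A5 came below SLC3A2 at a level overlapping that of SLC1A5, and SLC6A9 stood above SLC7A11. The 10 genes together made 2855 ± 165 TPM in Cond 1, 2774 ± 133 TPM in Cond 2, 1720 ± 23.5 TPM in Cond 3 and 2830 ± 149 TPM in Cond 4. The sum was lower in Cond 3 than in any library of the other conditions.

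**Figure D1:**
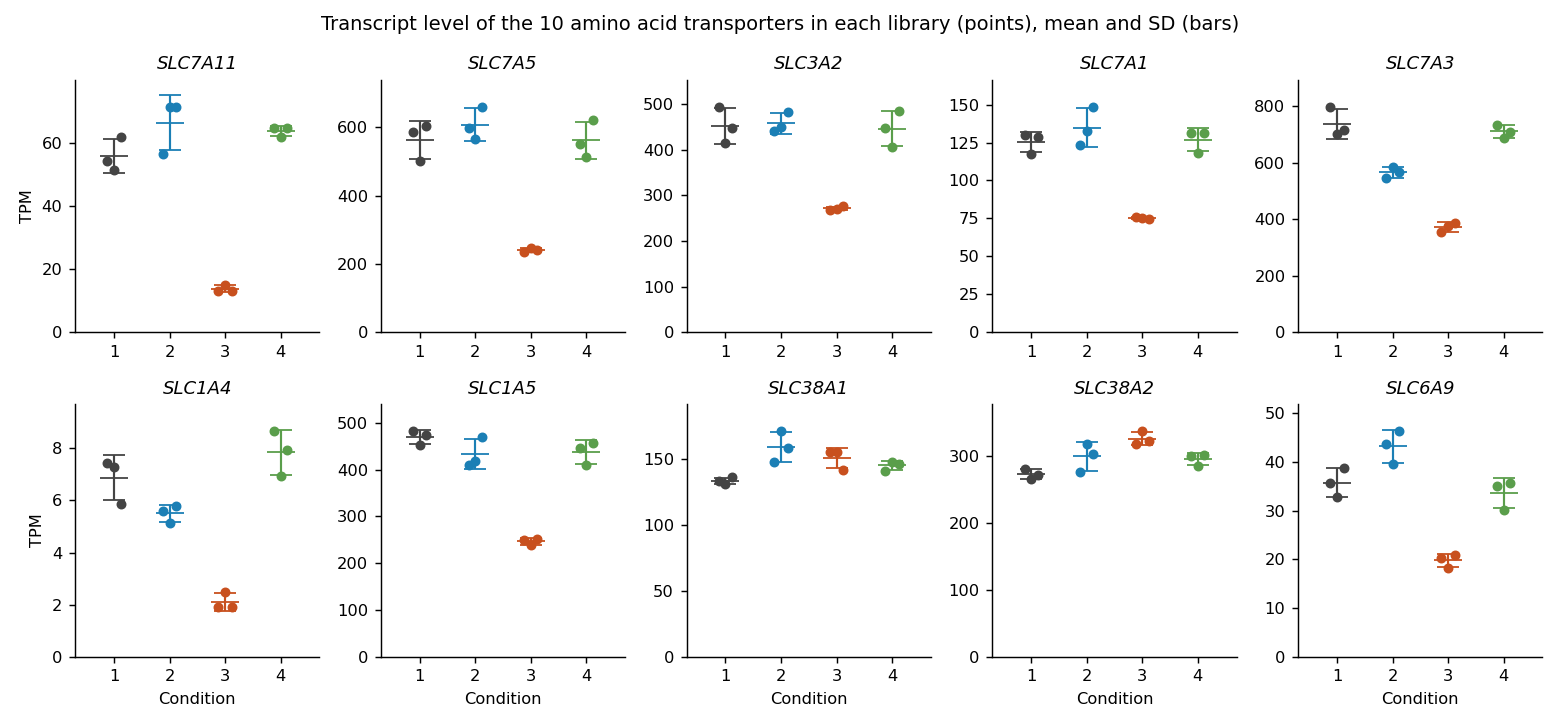
TPM (y axis, each panel from 0) of each transporter in the 3 libraries of Cond 1 to Cond 4 (x axis), as points with the mean and SD. In 8 panels the Cond 3 libraries sit below all others, while SLC38A1 and SLC38A2 sit above Cond 1 there.

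In Cond 3, 8 of the 10 transporters fell and 2 rose, so that all 10 were called. Over all genes tested, 38.4% were called in that comparison, 19.5% higher and 18.8% lower. The largest decreases were those of SLC7A11, at 24.1% of the control level, and SLC1A4, at 30.2%. The TPM of all 10 did not overlap between Cond 3 and Cond 1, and 48.6% of all genes tested did not overlap. A two-sided exact permutation test on TPM gave p = 0.1, the smallest that 3 against 3 libraries allow, for each of the 10 genes. Of the 10, 4 (SLC7A11, SLC1A4, SLC7A5 and SLC7A3) changed by more than 2-fold, against 8.16% of all genes. The median log2 fold change was -0.92 over the 10 genes and -0.01 over all genes tested. Since the 10 genes were chosen with earlier results of these data known, the shares over all genes are given for scale and are not a test. In Cond 2, 4 of the 10 were called, 3 lower (SLC7A3, SLC1A4, SLC1A5) and 1 higher (SLC38A1), where 20.9% of all genes were called, 10.1% lower and 10.8% higher. The medians there were 0.02 over the 10 genes and 0.00018 over all genes. In Cond 4, edgeR called 0 of the 10, with 4 at an unadjusted p-value under 0.05, and DESeq2 also called 0. Over all genes, 0.0282% were called in Cond 4.

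**Figure D2:**
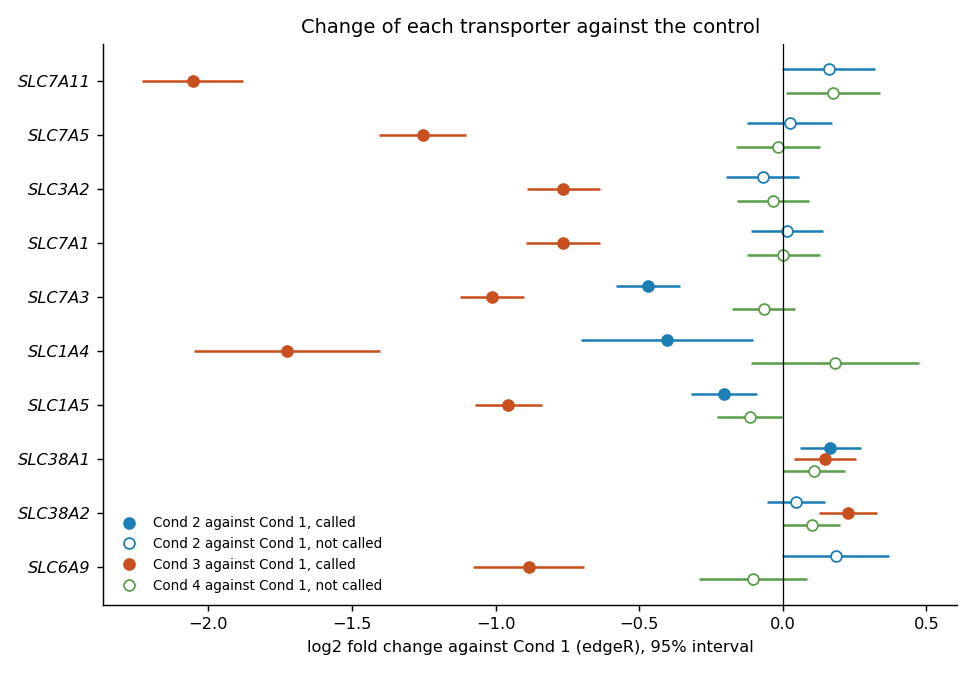
Change of each transporter (y axis) relative to the control on the log2 scale (x axis), with its 95% interval from edgeR, for Cond 2, Cond 3 and Cond 4. Filled points were called and open points were not. The Cond 3 points of 8 genes lie between -0.76 and -2.05, and those of SLC38A1 and SLC38A2 lie right of 0.

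Among the heterodimer subunits, the light chain of the cystine transporter changed most. SLC7A11 (chr4:138164097-138242349, GRCh38, minus strand, 12 exons) was at 54.1, 51.4 and 61.8 TPM in Cond 1 and at 13.1, 14.9 and 13.0 TPM in Cond 3. Every Cond 3 library was far below the control libraries, and the gene fell 4.15-fold (log2 fold change -2.05, SE 0.09, adjusted p = 2.43e-14). This was rank 163 from the lowest among 17747 fold changes. In Cond 2 it was at 56.2, 71.3 and 71.3 TPM, overlapping the control, with a log2 fold change of 0.16 (SE 0.08) that was not called (adjusted p = 0.166). That call depended on single libraries, since the adjusted p-value was 0.0362 without Cond 1 replicate 3 and 0.0187 without Cond 2 replicate 1. In Cond 4 the gene was at 64.5, 61.8 and 64.5 TPM, just above the highest control library, with a log2 fold change of 0.17 (SE 0.08) that was not called (adjusted p = 0.79).

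SLC7A5 (chr16:87830023-87869507, minus strand, 10 exons), the light chain for large neutral amino acids, had the most reads of the 10 genes (148771 over 12 libraries). It was at 585, 501 and 603 TPM in Cond 1 and at 236, 246 and 241 TPM in Cond 3. The groups were far apart, and SLC7A5 fell 2.39-fold (log2 fold change -1.25, SE 0.07, adjusted p = 6.17e-12). Of its 31-base words, 6.51% also occur elsewhere on the main chromosomes. Its partial copies SLC7A5P1 and SLC7A5P2 lie on chromosome 16. SLC7A5P1 had 43 to 117 counts per library and SLC7A5P2 had 0, and with their counts added the log2 fold change of SLC7A5 was -1.24. Levels in Cond 2 (599, 565 and 660 TPM) and Cond 4 (552, 513 and 621 TPM) overlapped the control. The log2 fold changes there were 0.02 (95% interval -0.12 to 0.17) and -0.02 (95% interval -0.16 to 0.13).

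SLC3A2 (chr11:62856004-62888880, plus strand, 9 exons), the heavy chain of both dimers, was at 494, 415 and 448 TPM in Cond 1 and at 268, 271 and 276 TPM in Cond 3. It fell 1.70-fold, a smaller estimate than those of its light chains (log2 fold change -0.76, SE 0.06, adjusted p = 1.56e-09). It was at 440 to 483 TPM in Cond 2 and 406 to 484 TPM in Cond 4, both overlapping the control.

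The ratio of 2 transporters within a library is free of the scaling between libraries. For 6 pairs, the log2 ratio of TPM in each condition was set against Cond 1 by a two-sided exact permutation test, 18 tests in all, where 3 against 3 libraries cannot give a p-value under 0.1. The SLC7A11 to SLC3A2 ratio was 0.123 in Cond 1 and 0.0504 in Cond 3, a difference of -1.29 on the log2 scale with no overlap (exact permutation p = 0.1, adjusted p = 0.2). The SLC7A5 to SLC3A2 ratio went from 1.24 to 0.887, so that the light chain was above the heavy chain in all 3 control libraries and below it in all 3 Cond 3 libraries (log2 difference -0.49, exact permutation p = 0.1, adjusted p = 0.2). Between the light chains, SLC7A11 to SLC7A5 was 0.099 in Cond 1 and 0.0568 in Cond 3 (log2 difference -0.80, no overlap, exact permutation p = 0.1, adjusted p = 0.2). In Cond 2 these 3 ratios overlapped the control. In Cond 4 the ratio of SLC7A11 to SLC7A5 was 0.114, with every library above the control libraries, and the other 2 overlapped.

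**Figure D3:**
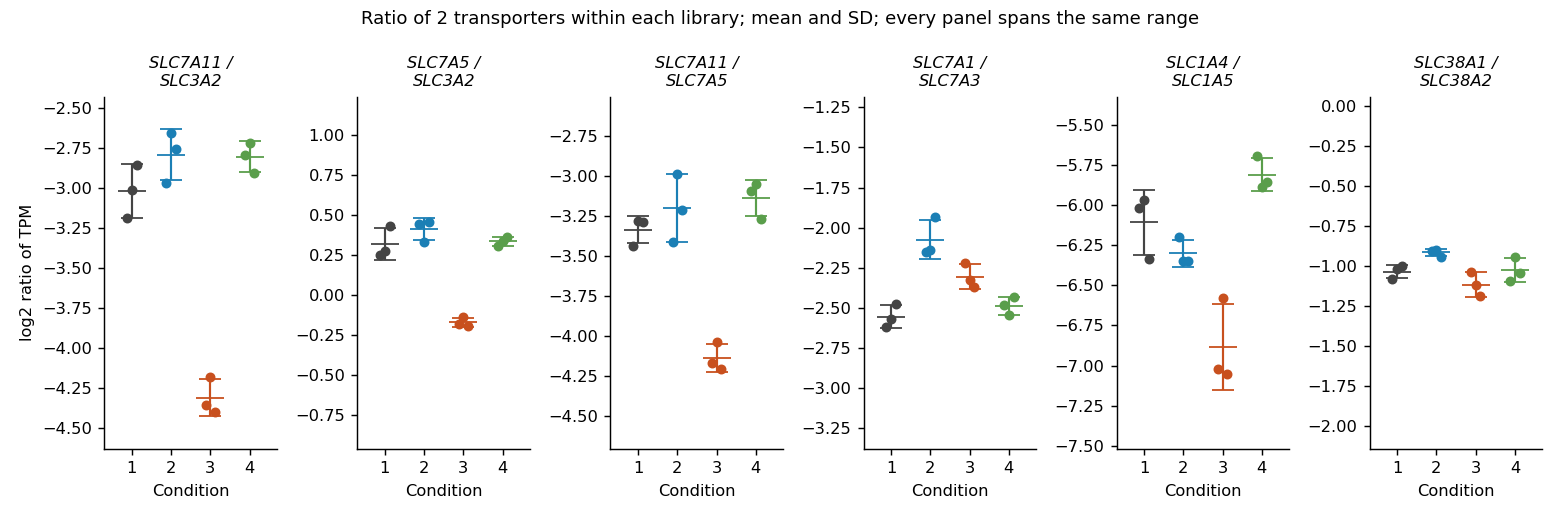
The log2 ratio of TPM (y axis, all panels spanning the same length) of 6 pairs of transporters in the 3 libraries of each condition (x axis), with the mean and SD. The ratio of SLC7A11 to SLC3A2 lies at -4.40 to -4.18 in Cond 3 and at -3.19 to -2.86 in the control.

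Of the carriers of arginine and lysine, SLC7A3 (chrX:70925579-70931125, minus strand, 12 exons) was lower in 2 conditions. It was at 799, 701 and 716 TPM in Cond 1, at 547, 586 and 568 TPM in Cond 2 and at 354, 377 and 388 TPM in Cond 3. The 3 groups did not overlap and stood in this order. The gene fell by 0.47 on the log2 scale in Cond 2 (SE 0.05, adjusted p = 6.56e-07) and by 1.01 in Cond 3 (SE 0.05, adjusted p = 1.66e-12), which left 72.3% and 49.6% of the control level. Cond 4 libraries (689 to 736 TPM) overlapped the control.

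SLC7A1 (chr13:29509414-29595688, minus strand, 13 exons) was at 130, 118 and 129 TPM in Cond 1 and at 76.1, 75.1 and 74.8 TPM in Cond 3. It fell 1.70-fold there (log2 fold change -0.76, SE 0.06, adjusted p = 1.67e-09). In Cond 2 it was at 123, 133 and 149 TPM, with a log2 fold change of 0.01 (95% interval -0.11 to 0.14). The SLC7A1 to SLC7A3 ratio was 0.17 in the control, 0.237 after heating of the medium (Cond 2) and 0.202 in Cond 3. It was above the control in every library of both conditions (exact permutation p = 0.1 and adjusted p = 0.2 for each), and it overlapped the control in Cond 4.

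Of the carriers of small neutral amino acids, SLC1A5 (chr19:46774883-46788594, minus strand, 8 exons), a main route for glutamine, was at 482, 454 and 475 TPM in Cond 1 and at 251, 238 and 253 TPM in Cond 3. It fell 1.94-fold (log2 fold change -0.96, SE 0.06, adjusted p = 7.94e-12). In Cond 2, at 411, 420 and 471 TPM, it overlapped the control in TPM, and the counts gave a log2 fold change of -0.20 (SE 0.06, adjusted p = 0.00974). Without Cond 2 replicate 2 the adjusted p-value was 0.0673, and with limma on log2(TPM + 1) it was 0.248.

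SLC1A4 (chr2:64988477-65023865, plus strand, 8 exons), which carries alanine, serine and cysteine, was at 7.45, 7.26 and 5.88 TPM in Cond 1 and at 1.93, 2.50 and 1.90 TPM in Cond 3. These libraries held 238 to 285 and 70 to 95 reads of the gene. It fell 3.31-fold (log2 fold change -1.73, SE 0.16, adjusted p = 9.81e-09). In Cond 2, at 5.59, 5.15 and 5.77 TPM, it was just below the lowest control library (log2 fold change -0.40, SE 0.14, adjusted p = 0.0493). This call held in 1 of the 6 fits that left out a library, without Cond 1 replicate 3 (adjusted p = 0.0313). It was lost without Cond 1 replicate 1 (adjusted p = 0.173), Cond 1 replicate 2 (0.13), Cond 2 replicate 1 (0.0618), Cond 2 replicate 2 (0.169) or Cond 2 replicate 3 (0.0703), in DESeq2 (adjusted p = 0.0545) and in edgeR with the replicate number as a block (adjusted p = 0.0586). LINC02245, an antisense gene over SLC1A4, had 1657 counts over the 12 libraries against 2431 for SLC1A4. The setting for strand in the counting was not given in the sources used here, so reads of overlapping genes on opposite strands may not have been kept apart. The SLC1A4 to SLC1A5 ratio was 0.0145 in Cond 1 and 0.00847 in Cond 3 (log2 difference -0.78, no overlap, exact permutation p = 0.1, adjusted p = 0.2). In Cond 4 it was 0.0178, above every control library (log2 difference 0.30, exact permutation p = 0.1, adjusted p = 0.2), and in Cond 2 it overlapped the control.

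The SLC38 carriers SLC38A1 and SLC38A2 rose in Cond 3, whereas the other 8 genes fell. SLC38A2 (chr12:46358188-46372773, minus strand, 16 exons) was at 282, 266 and 272 TPM in Cond 1 and at 318, 337 and 323 TPM in Cond 3. Every Cond 3 library was above the control, a rise of 1.17-fold (log2 fold change 0.23, SE 0.05, adjusted p = 0.000681). It overlapped the control in Cond 2 (277 to 318 TPM). In Cond 4 (285 to 302 TPM) all libraries were above the control, with a log2 fold change of 0.10 (SE 0.05) that was not called (adjusted p = 0.802).

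SLC38A1 (chr12:46183063-46270017, minus strand, 17 exons), its neighbour on chromosome 12, was at 133, 131 and 136 TPM in Cond 1. It was at 148, 171 and 158 TPM in Cond 2 and at 155, 155 and 142 TPM in Cond 3. Both groups were above the control, with log2 fold changes of 0.17 (SE 0.05, adjusted p = 0.0236) and 0.15 (SE 0.05, adjusted p = 0.0275). In Cond 2 the call was lost without Cond 1 replicate 1 (adjusted p = 0.0803), Cond 1 replicate 2 (0.0665) or Cond 2 replicate 2 (0.173). In Cond 3 it was lost without Cond 1 replicate 1 (adjusted p = 0.0846), Cond 1 replicate 2 (0.0763), Cond 3 replicate 1 (0.0956) or Cond 3 replicate 2 (0.112), and with limma on log2(TPM + 1) (0.0628). Cond 4 libraries (141 to 148 TPM) were also above the control (log2 fold change 0.11, SE 0.05, adjusted p = 0.801). In Cond 4, 3 of the 10 transporters did not overlap the control, against 11.9% of all genes tested. The SLC38A1 to SLC38A2 ratio was 0.488 in the control, 0.53 after heating of the medium (Cond 2) and 0.462 in Cond 3. It was above the control in every library of Cond 2 and overlapped it in Cond 3.

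SLC6A9 (chr1:43991500-44031467, minus strand, 14 exons), the glycine transporter GlyT1, was at 35.7, 32.8 and 38.7 TPM in Cond 1 and at 20.2, 18.3 and 20.9 TPM in Cond 3. It fell 1.85-fold (log2 fold change -0.88, SE 0.09, adjusted p = 1.03e-07). In Cond 2 its libraries (43.7, 39.5 and 46.3 TPM) were all above the control, with a log2 fold change of 0.18 (SE 0.09) that was not called (adjusted p = 0.165). In that comparison 4 of the 10 transporters did not overlap the control in TPM, against 35.7% of all genes. The antisense gene CCDC24 overlaps SLC6A9 and had 3683 counts against 10817 for SLC6A9. TPM in Cond 2 ran above the count-based scale, with a median log2 fold change of 0.08 over the genes of the limma fit on log2(TPM + 1).

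Cond 3 was also compared with Cond 2, both being changes of medium. The paper describes an earlier start of the altered medium in Cond 2 than in Cond 3. Medium and length of exposure therefore cannot be told apart here. Of the 10 transporters, 9 were called, 8 lower and SLC38A2 higher, where 38.2% of all genes were called, 19.2% lower and 19.0% higher. The 8 lower genes did not overlap in TPM, against 47.6% of all genes. SLC7A11 had the largest difference (log2 fold change -2.21, SE 0.09, adjusted p = 7.38e-15), followed by SLC1A4 (-1.32, SE 0.16, adjusted p = 6.08e-07) and SLC7A5 (-1.28, SE 0.07, adjusted p = 4.71e-12). SLC6A9 differed by -1.07 on the log2 scale (SE 0.09, adjusted p = 5.19e-09). SLC7A3, which was lower in both media, differed by -0.54 (SE 0.05, adjusted p = 3.98e-08). SLC38A2 was 0.18 higher in Cond 3 (SE 0.05, adjusted p = 0.00454) with overlapping TPM, a call lost with limma on log2(TPM + 1) (0.152), and SLC38A1 differed by -0.02 (95% interval -0.13 to 0.09, adjusted p = 0.813).

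Marker levels of other cell types moved with the conditions. In Cond 2 the summed level of 8 neuroectoderm markers was 469 to 763 TPM, against 21.5 to 34.2 TPM in Cond 1, with 5 of the 8 at a mean of at least 1 TPM against 3. In Cond 3 it was 59.3 to 78.3 TPM, with 3 of 8. The 7 fibroblast markers summed to 424 to 456 TPM in the control, to 265 to 314 TPM with heated medium (Cond 2) and to 585 to 622 TPM in Cond 3, with 4 of 7 at 1 TPM or more in each and DCN at 0. The paper lists THY1, a marker in this list, as lower in Cond 2 and Cond 3, so the higher sum in Cond 3 does not hold for every marker. With 4 of 7 at 1 TPM or more in the control as well, the sum is not a measure of fibroblast content. The 8 surface ectoderm and amnion markers summed to 349 to 417 TPM in the control, to 284 to 317 TPM with heated medium (6 of 8 at 1 TPM or more, against 2) and to 206 to 224 TPM in Cond 3 (3 of 8, with TFAP2B and DLX5 at 0). The 7 mesendoderm markers summed to at most 6.05 TPM in any library, with FOXA2 at 0. The part of these markers in the transporter changes was not tested.

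The other transporters of the plasma membrane showed more rises than falls in Cond 3. Of 33 genes in this list, 18 passed the filter, and 8 rose, 3 fell and 7 were not called in Cond 3, where 19.5% of all genes rose and 18.8% fell. Their median log2 fold change was 0.60, against -0.92 for the 10 transporters above. Both groups were chosen with earlier results of these data known, so the contrast between them is a description only. SLC38A4, a further sodium-coupled carrier of neutral amino acids, rose from 3.80 ± 0.908 to 20.9 ± 1.38 TPM (log2 fold change 2.42, SE 0.20, adjusted p = 3.06e-09). SLC7A10, an exchanger of small neutral amino acids, rose from 3.41 ± 0.375 to 10.5 ± 0.805 TPM (log2 fold change 1.59, SE 0.26, adjusted p = 4.06e-05). SLC43A1, a carrier of large neutral amino acids, fell from 61.7 ± 4.35 to 35.2 ± 3.60 TPM (log2 fold change -0.84, adjusted p = 3.63e-07). SLC6A15, a carrier of branched-chain amino acids and proline, fell from 19.0 ± 1.84 to 10.9 ± 1.13 TPM (log2 fold change -0.83, adjusted p = 2.48e-07). In Cond 2, 1 of the 18 rose and 5 fell, against 10.8% and 10.1% of all genes. SLC16A10, a carrier of aromatic amino acids, fell there from 7.66 ± 0.834 to 3.43 ± 0.576 TPM (log2 fold change -1.25, adjusted p = 1.22e-07), the glutamate transporter SLC1A3 fell by 0.92 on the log2 scale (adjusted p = 0.00254), and the cationic carrier SLC7A2 rose from 30.6 ± 2.45 to 39.8 ± 0.536 TPM (log2 fold change 0.29, adjusted p = 0.00341).

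The amino acid response genes, most of them known targets of ATF4, fell with the 8 transporters in Cond 3. Of 18 in the list, 16 passed the filter, and 15 fell, where 18.8% of all genes fell. The median log2 fold change was -2.16, against -0.01 over all genes. Like the transporters, this list was chosen with earlier results of these data known. EIF2AK4, the kinase GCN2 that senses uncharged tRNA, was the 1 not called (log2 fold change -0.14, adjusted p = 0.0825). GDF15, a secreted stress factor, had 94, 105 and 83 counts in Cond 3 against 1809, 929 and 1491 in Cond 1 and fell most (log2 fold change -3.99, SE 0.21, adjusted p = 1.51e-12). NUPR1, a stress-induced chromatin protein, had 10, 2 and 0 counts in Cond 3 against 59, 46 and 57 (log2 fold change -3.83, SE 0.49, adjusted p = 1.51e-06). ATF4 itself had no count row. It was at 534 ± 16.2 TPM in Cond 3 and 645 ± 19.8 TPM in Cond 1, lower by 0.27 on the log2 scale in limma on log2(TPM + 1) (SE 0.05, limma adjusted p = 0.00226). In Cond 2 the same list had 2 genes that rose, DDIT3 (log2 fold change 0.43, adjusted p = 0.00876) and ATF3 (0.26, adjusted p = 0.0153), both stress-induced transcription factors. In the same comparison 3 fell, VLDLR, a lipoprotein receptor (-0.80, adjusted p = 2.16e-08), GDF15 (-0.76, adjusted p = 0.00166) and EIF2AK4 (-0.32, adjusted p = 0.000519). Of all genes tested, 10.8% rose and 10.1% fell in Cond 2.

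**Figure D4:**
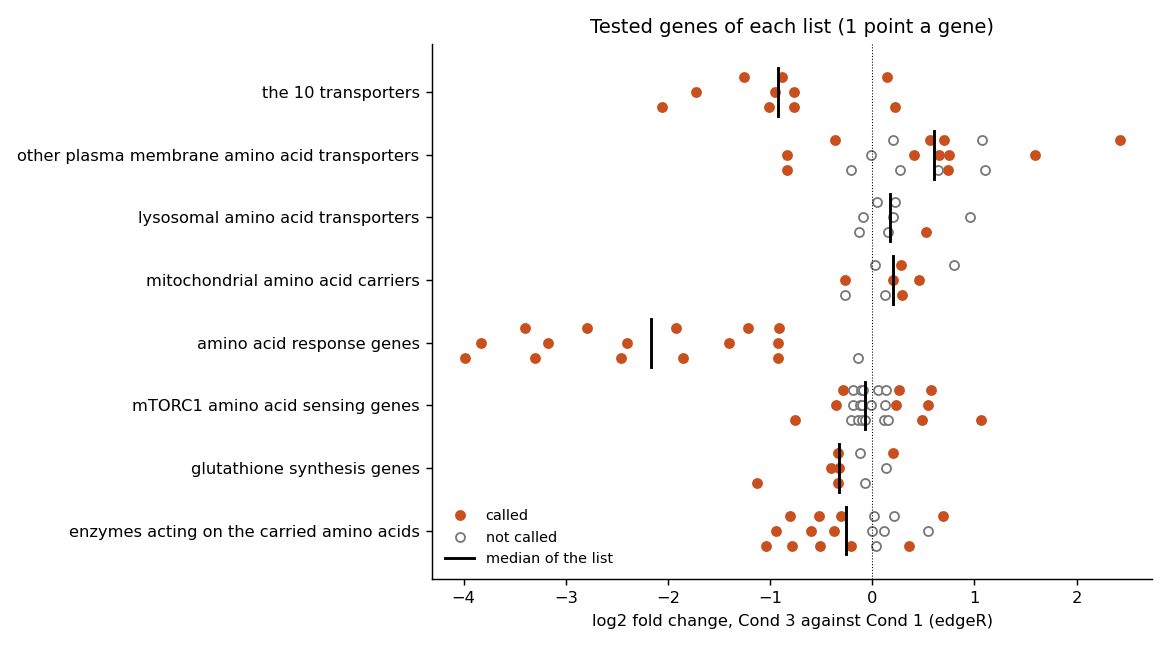
Each tested gene of 8 gene lists (y axis) by its log2 fold change in Cond 3 relative to Cond 1 (x axis), with filled points called and a bar at the list's median. The medians are -2.16 for the amino acid response genes, -0.92 for the 10 transporters and 0.60 for the other plasma membrane transporters. All 8 lists were chosen with earlier results of these data known.

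Genes of glutathione and amino acid metabolism changed in both directions. Of 9 tested genes of glutathione synthesis and its redox partners, 5 fell and 1 rose in Cond 3, where 38.4% of all genes were called. CTH, which makes cysteine from cystathionine, fell from 77.0 ± 5.37 to 36.0 ± 2.88 TPM (log2 fold change -1.13, adjusted p = 1.02e-09) and GPX1, a glutathione peroxidase, fell by 0.41 on the log2 scale (adjusted p = 1.45e-05). TXNRD1, a thioredoxin reductase, rose (log2 fold change 0.21, adjusted p = 0.00326). In Cond 2, 2 of the 9 were called, near the 20.9% of all genes, and TXNRD1 rose (0.25, adjusted p = 0.000923) and TXN, thioredoxin, fell (-0.31, adjusted p = 0.000636). Of 18 tested enzymes acting on glutamine, arginine, branched-chain amino acids or glycine, 10 fell and 2 rose in Cond 3, against 18.8% and 19.5% of all genes. GPT2, which makes alanine from glutamate and pyruvate, fell from 151 ± 5.84 to 75.0 ± 3.13 TPM (log2 fold change -1.04, adjusted p = 1.2e-11), and PYCR1, which makes proline, fell by 0.94 on the log2 scale (adjusted p = 1.39e-09). OAT, ornithine aminotransferase, rose (0.69, adjusted p = 9.52e-08), as did ARG2, a mitochondrial arginase (0.36, adjusted p = 0.00993). In Cond 2, 2 of these enzymes rose and 8 fell, against 10.8% and 10.1% of all genes, and limma on log2(TPM + 1) called 6 of them. ODC1, which makes polyamines from ornithine, rose in Cond 2 from 349 ± 9.20 to 595 ± 29.2 TPM (log2 fold change 0.68, adjusted p = 3.45e-09). BCAT1, a branched-chain aminotransferase, rose (0.34, adjusted p = 0.000151) and OAT fell (-0.48, adjusted p = 3.96e-05) in the same comparison. In Cond 4, of 103 tested genes in the 7 lists, edgeR and DESeq2 each called 0, and 4 were at an unadjusted p-value under 0.05 in edgeR.

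Between the media of Cond 3 and Cond 2, 19.0% of all genes tested were called higher and 19.2% lower in Cond 3. There, 12 of the 18 tested plasma membrane transporters of the other list were higher and 3 were lower, led by SLC38A4 (log2 fold change 2.26, SE 0.20, adjusted p = 7.26e-09). Of the 16 amino acid response genes, 15 were lower, among them ATF5, a stress-induced transcription factor (-3.60, SE 0.17, adjusted p = 1.38e-13), and EIF2AK4 was higher (0.18, adjusted p = 0.0245). Of the 18 enzymes, 6 were higher and 9 lower. OAT was higher by 1.17 on the log2 scale (adjusted p = 2.83e-11) and ODC1 lower, at -1.46 (adjusted p = 7.98e-15). Of the 9 glutathione genes 2 were higher and 4 lower, with CTH at -1.09 (adjusted p = 1.53e-09).

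The genes most like a transporter over the 3 fold changes (log2) from the control were sought among 9401 other tested genes with a mean of at least 10 TPM, taking the smallest value of the largest difference. For SLC7A11 (0.16, -2.05 and 0.17 in Cond 2 to Cond 4) these were TXNIP, an inhibitor of thioredoxin (0.07, -1.98 and 0.04, largest difference 0.14), TSC22D3, a glucocorticoid-induced gene (0.02, -2.02 and 0.05, largest difference 0.14), and ATF3 (0.26, -1.85 and 0.02, largest difference 0.20). For SLC7A5 (0.02, -1.25 and -0.02) the nearest was PSPH, the last enzyme of serine synthesis (0.03, -1.26 and 0.00213, largest difference 0.02), then RHBDL1, a rhomboid-like protein (largest difference 0.05), and GOLT1A (largest difference 0.08). Likeness over 3 values that share the control is a description only.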

How the data were processed

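The authors prepared strand-specific poly(A) libraries, trimmed reads with cutadapt 4.1 and fastp 0.20.1, aligned them to GRCh38 with HISAT2 2.1.0 and counted them with featureCounts. The strand setting, the handling of multiply mapped reads and the annotation release were not given in the sources used here. The authors deposited whole-number read counts per gene, without normalization, and TPM values computed from those counts and gene lengths. Of 58580 count lines, 5 held no whole gene row and were left out, and 2042 genes with TPM had no count row. After TMM normalization, counts were tested with edgeR 4.0.16 (quasi-likelihood, R 4.3.3) in 1 fit over 12 libraries, after its filter on low counts. Limma 3.58.1, the package named in the paper, on log2(TPM + 1), DESeq2 1.42.0, other scalings, filters and pseudocounts, the replicate block and leaving out each library were alternatives, and the steps were tested on simulated data. Ratios and TPM were tested with exact permutation in scipy 1.17.1. Coordinates are from GENCODE release 44. The transporters and gene lists were chosen with earlier results of these data known. From each list and comparison the text names up to 2 called genes per direction with the largest change and a mean TPM of at least 1, with EIF2AK4 and ATF4 named after their values were seen. List members without a count row enter only on TPM, and SAMTOR was not found. Values of some single genes are not reported here.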

Additional observations from a re-analysis of the deposited data

How the results depend on the processing

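The 8 decreases in Cond 3 against Cond 1 and the rise of SLC38A2 kept their direction and their call in every other fit run, as did the decrease of SLC7A3 in Cond 2, while the rise of SLC38A1 in Cond 3 and the other 3 calls in Cond 2 did not. A threshold of a fold change above 2 ended the Cond 3 calls of SLC3A2, SLC7A1, SLC1A5, SLC6A9, SLC38A1 and SLC38A2 and every call in Cond 2. Over 4 comparisons, 512 of 564 refitted fold changes of the transporters kept direction and call, 31 lost the call, 2 gained it and 19 changed sign, all 19 in fold changes that were not called. In Cond 2, 4 transporters were called, 2 in each of the 3 limma fits on TPM and in the 6 libraries alone, 0 with a fold change above 2, and 1 to 5 when each library was left out. Lowest was 1, without Cond 2 replicate 2. With a fold change above 2, 4 were called in Cond 3 against Cond 1 and 4 against Cond 2. The cause was not tested.

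Fold changes of transporters that were not called changed sign as follows. SLC3A2 in Cond 2 was 0.019 in the 3 limma fits, SLC7A1 in Cond 4 was -0.0022 with no filter, and SLC38A1 in Cond 3 against Cond 2 was 0.015 with upper-quartile normalization. Leaving out 1 library gave -0.057 to 0.087 for SLC7A5 and -0.053 to 0.057 for SLC7A1 in Cond 2. In Cond 4 it gave -0.099 to 0.045 for SLC7A5, -0.096 to 0.027 for SLC3A2 and -0.046 to 0.048 for SLC7A1, and -0.0497 to 0.027 for SLC38A1 in Cond 3 against Cond 2. With TPM + 1, the SLC1A4 to SLC1A5 log2 difference in Cond 3 was -0.41, since SLC1A4 is near 2 TPM there.

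Of 392 recomputed list counts, 369 stayed within 1.5 times. In Cond 2 the limma fits called 6 enzymes and 1 glutathione gene, and without a filter 3 response genes and 1 lysosomal transporter. Leaving out a library gave 0 to 3 lysosomal transporters (0 without Cond 1 replicate 1) and 1 to 3 mitochondrial carriers. In Cond 3 against Cond 1, lysosomal transporters numbered 2 in limma with no filter, in the 6 libraries and with the replicate block, and 0 to 1 with a library left out. In Cond 3 against Cond 2, limma called 1 lysosomal transporter, and upper-quartile normalization and limma with no filter called 2 mitochondrial carriers, as did 3 of the fits without a library (2 to 4).

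Samples with the same number deviated together no more than others (correlations from -0.01 to 0.04 over 12 pairs, and from -0.07 to 0.06 over 24 pairs with different numbers). These correlations cannot show whether samples with the same number shared a plate, and the replicate block was run as an alternative. With the replicate block, 3 transporters were called in Cond 2 (without SLC1A4, adjusted p = 0.0586), 10 in Cond 3, 0 in Cond 4 and 9 in Cond 3 against Cond 2. SLC1A4 had 70 to 298 reads per library, the fewest of the 10.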

Other observations

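Transporters inside the cell and the sensors of amino acids were listed apart from those of the plasma membrane. Over all genes, 38.4% were called in Cond 3 against Cond 1 and 20.9% in Cond 2, and the counts of the lists below were near or under these shares in both, except for 5 of 9 mitochondrial carriers in Cond 3 and 3 of 8 lysosomal transporters in Cond 2. Of 8 lysosomal amino acid transporters, 1 was called in Cond 3 against Cond 1, the rise of the proton-coupled SLC36A1 (6.43 ± 0.231 to 9.48 ± 1.17 TPM, log2 fold change 0.53, adjusted p = 0.00666 in edgeR). In Cond 2, 2 rose and 1 fell, with SLC38A7, a lysosomal glutamine carrier, at a log2 fold change of 0.36 (adjusted p = 0.012). Of 9 tested mitochondrial carriers, 4 rose and 1 fell in Cond 3, with the glutamate carrier SLC25A22 at 0.46 (adjusted p = 0.000167) and the serine carrier SFXN1 at 0.29 (adjusted p = 0.000532). In Cond 2, 2 were called, both higher, the aspartate-glutamate carrier SLC25A13 (0.36, adjusted p = 3.73e-05) and SLC25A22 (0.31, adjusted p = 0.0117).

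Of 25 tested genes that sense amino acids for mTORC1, 6 rose and 3 fell in Cond 3, with a median log2 fold change of -0.07. CASTOR2, an arginine-sensor homologue, rose from 7.25 ± 0.780 to 15.5 ± 2.52 TPM (log2 fold change 1.06, adjusted p = 0.00142), and SESN1, a leucine-sensor homologue, fell by 0.76 on the log2 scale (adjusted p = 7.08e-06). In Cond 2, 2 were called, both higher. These were the Rag GTPase RRAGD, at 33.1 ± 1.99 TPM (log2 fold change 0.96, adjusted p = 4.59e-08), and SESN3 (0.81, adjusted p = 1.01e-06). RRAGD also rose in Cond 3 (0.58, adjusted p = 3.08e-05) and was lower there than in Cond 2 (-0.38, adjusted p = 0.00159).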
